A study of Sus scrofa with 30 samples.

Results

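Genes of iron uptake, storage and heme breakdown were followed in single pig embryos from Day 8 to Day 12. The listed symbols were TF, TFRC, STEAP3, SLC11A2, SLC40A1, HEPH, FTH1, FTL, HMOX1 and IREB2, and they were matched by symbol to NCBI gene identifiers. HEPH, an X-linked ferroxidase of iron export, was not in the count table, so 9 of the 10 symbols were measured. The symbol TF belonged to 2 neighbouring genes, and 10 of the 13103 genes of the table were therefore described. The second of these, with the synonym PICA, entered by its symbol alone, and whether it encodes an iron carrier was not tested.

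RNA-seq was done on 30 whole embryos of Sus scrofa, flushed from the uterus of German Landrace x Pietrain gilts after insemination with sperm of 1 Pietrain boar. All gilts had been cycle synchronized with Altrenogest, PMSG and human chorionic gonadotropin before insemination, and the paper describes no other treatment. On each of Days 8, 10 and 12 after insemination 5 female and 5 male embryos were sequenced. Each library held the mRNA of a single embryo, with embryonic disc and trophectoderm together. The 10 embryos of a day came from at most 4 gilts, so some were littermates, but the gilt of an embryo is not in the labels and could not enter any test. The p-values therefore treat littermates as independent and measure the spread between embryos only.

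Iron reaches most cells bound to transferrin, which docks on the transferrin receptor and is taken up into endosomes. There the iron is released, reduced by STEAP3 and carried into the cytosol by SLC11A2, after which it is used, stored in ferritin shells built of FTH1 and FTL chains, or exported by ferroportin (SLC40A1). HMOX1 opens the heme ring and frees its iron, and IREB2 binds iron-responsive elements in mRNAs of several of these genes when iron is scarce. In the pig, the uterus also supplies iron to the conceptus in the secreted glycoprotein uteroferrin.

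The counts per embryo ranged from 6068212 to 34002508, and the lowest total was that of d12_f_245, embryos being named by day, sex (f or m) and number. Levels are given as counts scaled to a common library total with TMM factors (CPM), and 3 counts or fewer were taken as the floor, which was at most 0.434 CPM. The mean correlation of an embryo with others of its day was at least 0.973, 0.958 and 0.901 on the 3 days, and the lowest values were those of Day 12 female embryos d12_f_245 and d12_f_271. All 10 trophectoderm markers listed were in the table, with 10 of 12 hypoblast and 7 of 9 epiblast markers. CPM are not scaled to transcript length, so levels are compared between embryos and not between genes. In a whole embryo, fewer cells of a type and less RNA per cell cannot be told apart.

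From Day 8 to Day 10 TF and PICA rose and STEAP3 and HMOX1 fell. From Day 10 to Day 12 TF, PICA, TFRC and STEAP3 rose and SLC40A1 fell. A gene was called a differentially expressed gene (DEG) between days with an FDR, the Benjamini-Hochberg adjusted p of edgeR's quasi-likelihood test over all 13103 genes, under 0.001 and a log2 fold change beyond 1. By this rule 4 of the 10 genes were called on Day 10 against Day 8, where 14.1% of all genes tested were called. On Day 12 against Day 10, 5 of the 10 genes were called, beside 23.3% of all genes. On Day 12 against Day 8 the count was 5 of 10, beside 32.5% of all genes, with 4 higher (22% of all genes) and 1 lower (10.4%). In female embryos only 0, 5 and 7 of the 10 were called in the 3 comparisons, beside 7.46%, 17.8% and 30% of all genes, and in male embryos only 1 (TF) was called on Day 10 against Day 8, beside 8.14%. With an FDR under 0.05 and no fold limit, 8, 9 and 10 of the 10 passed in the 3 comparisons of all embryos, beside 56.1%, 59.7% and 73.3% of all genes. The median log2 fold change of the 10 genes was 0.13, 0.71 and 0.84 in these, and that of all genes was 0.03, 0.04 and 0.09. The 3 comparisons share embryos, as each day enters 2 of them.

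**Figure D1:**
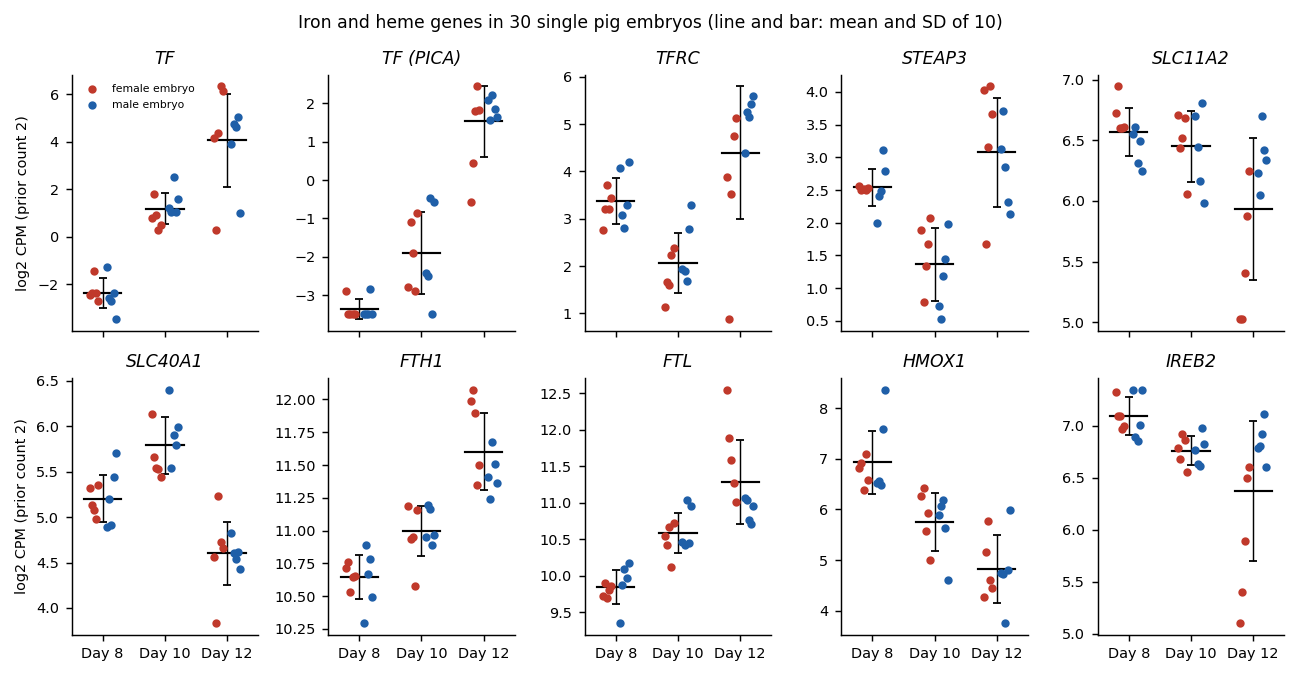
Log2 CPM (prior count 2) of each gene in each of 30 embryos by day, with female embryos in red, male embryos in blue, and the mean and SD of the 10 embryos of a day as line and bar. TF and TF (PICA) have their highest means on Day 12, TFRC and STEAP3 have their lowest means and SLC40A1 its highest mean on Day 10, and HMOX1 has its highest mean on Day 8 and its lowest on Day 12.

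TF encodes transferrin, the carrier of ferric iron in blood plasma and other body fluids. The first of the 2 entries, gene 396996 on chromosome 13 (74930655 to 74970599, Sscrofa11.1), was near the detection limit on Day 8. There its level ran from 0 to 0.329 CPM with a median of 0.0985 CPM, and 8 of 10 embryos were at or under the floor. On Day 10 the level ran from 1.14 to 5.70 CPM with a median of 1.96 CPM. Day 12 embryos had 1.14 to 81.0 CPM, with a median of 22.4 CPM. Every Day 10 embryo lay above every Day 8 embryo, whereas 8 of 10 Day 12 embryos lay above all of Day 10.

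The rise of TF to Day 10 was 17.1-fold (log2 fold change 4.10, SE 0.64, n = 10 and 10, edgeR FDR = 3.44e-06). The rise from Day 10 to Day 12 was 12.0-fold (log2 fold change 3.59, SE 0.50, edgeR FDR = 3.00e-07). The 2 Day 12 embryos that did not exceed Day 10 were female d12_f_271 with 1.14 CPM and male d12_m_307 with 1.90 CPM. The spread of TF on Day 12 was the widest in proportion of the 10 genes, 29.2 ± 26.5 CPM (SD, n = 10), and its highest value was 71.1 times its lowest.

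The second entry of that symbol, gene 396845, lies next to the first (chromosome 13, 74862502 to 74907059) and carries the synonym PICA, by which it is named here. The shared symbol does not show it to be a second transferrin, and it is counted among the 10 genes by symbol only. Related sequences may share reads between the 2 genes, and the levels of each are uncertain to that extent. All 10 Day 8 embryos were at or under the floor for PICA, with 2 counts among them. On Day 10 its level ran from 0 to 0.629 CPM with a median of 0.138 CPM and 5 embryos at or under the floor, and on Day 12 from 0.579 to 5.35 CPM with a median of 3.43 CPM. Day 12 embryos lay above all of Day 10 in 9 of 10 cases and above all of Day 8 in 10 of 10.

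Against the mean Day 8 floor of 0.140 CPM, the mean of PICA was at least 1.80-fold higher on Day 10 and at least 23.0-fold higher on Day 12. These bounds were not tested, and the Day 10 median of 0.138 CPM was itself under that floor. The changes fitted to the counts had edgeR FDR = 1.88e-05 on Day 10 and edgeR FDR = 7.98e-12 on Day 12. From Day 10 to Day 12 PICA rose 12.4-fold (log2 fold change 3.63, SE 0.46, edgeR FDR = 5.56e-08). With PICA set at its bound, the median log2 fold change of the 10 genes against Day 8 was again 0.13 on Day 10 and 0.84 on Day 12. The median could not change, because PICA ranked above the middle of the 10 genes with either value.

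Markers of other cell types that also changed with day were read beside TF. Of 10 blood and erythroid markers, 2 (HBB and LYZ) were in the table, and their sum ran from 0 to 0.158 CPM on Day 8, 0.0456 to 7.52 CPM on Day 10 and 0.780 to 14.3 CPM on Day 12. HBB was at or under the floor in all 10 embryos of Day 8, in 7 of Day 10 and in 1 of Day 12. The 10 hypoblast markers in the table, among them GATA4, GATA6, SOX17 and HNF4A, summed to a median of 915 CPM on Day 8 (range 765 to 1652), 1160 CPM on Day 10 (784 to 1509) and 3080 CPM on Day 12 (1648 to 7136), largely from APOA1, and 7 of the 10 rose from Day 10 to Day 12. Of 11 uterine epithelial markers 7 were in the table, with sums of 7.01 to 13.5 CPM, 13.4 to 88.1 CPM and 132 to 467 CPM on the 3 days, most of it from RBP4 on Day 12, which the hypoblast list also holds. The 10 trophectoderm markers summed to 21590 to 25970 CPM on Day 8, 35155 to 52208 CPM on Day 10 and 17587 to 43556 CPM on Day 12, and from Day 10 to Day 12 5 of them fell and 3 rose. Of 7 epiblast markers 5 fell in that interval, with sums of 51.8 to 78.4, 311 to 1787 and 399 to 1354 CPM on the 3 days. Of all genes, 14.9% were called higher and 8.39% lower from Day 10 to Day 12. The sums of Days 10 and 12 came mostly from TDGF1 and DPPA5, and SOX2 was at or under the floor in all 10 Day 12 embryos. The part of these markers in the changes of TF and the other listed genes was not tested.

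Among Day 12 embryos, the 2 with the lowest TF were also the lowest for the hypoblast genes HNF4A, with 29.4 CPM in female d12_f_271 and 51.8 CPM in male d12_m_307, and PDGFRA, with 43.9 and 77.2 CPM. Female d12_f_245 had the highest hypoblast sum, 7136 CPM, and a TF level of 17.8 CPM, below the day's median. The 2 highest TF levels, 81.0 CPM in female d12_f_297 and 70.1 CPM in female d12_f_299, came with hypoblast sums of 4876 and 4367 CPM. Female d12_f_271, the lowest in TF and TFRC, had the highest trophectoderm and epiblast sums of the day, 43556 and 1354 CPM. It also had the highest CDX2 (186 CPM), KRT8 (17097 CPM), KRT18 (8126 CPM) and TFAP2A (142 CPM). The trophectoderm markers GATA2, GATA3, TFAP2C, TEAD4, DAB2 and PLET1 were highest in other embryos. Its epiblast sum was largely DPPA5 (1220 CPM), whereas POU5F1 was highest in female d12_f_245 (4.05 CPM). Male d12_m_307 had trophectoderm and epiblast sums of 23281 and 579 CPM.

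**Figure D2:**
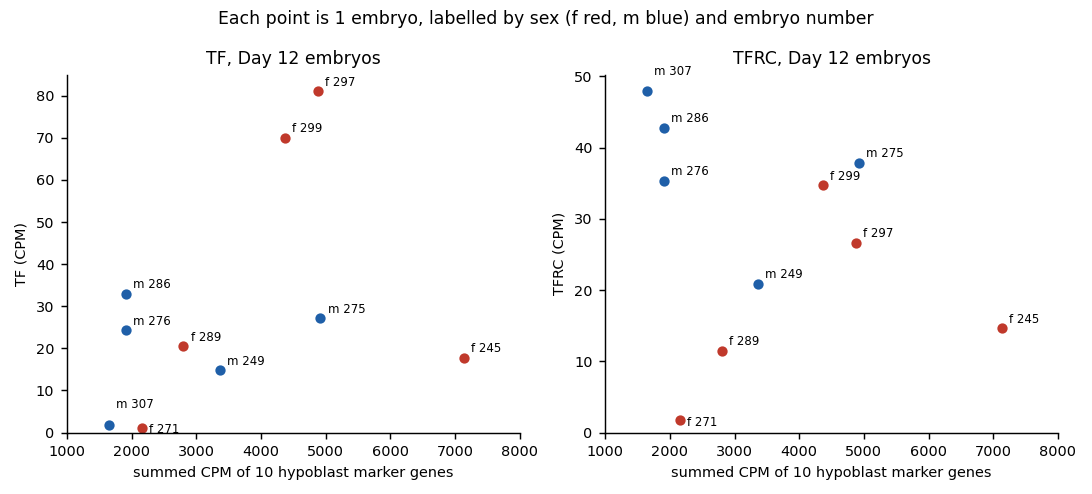
TF (left) and TFRC (right) in CPM against the summed CPM of 10 hypoblast marker genes in the 10 Day 12 embryos, each point labelled with sex and embryo number. Female d12_f_271 is lowest in both genes, while male d12_m_307 has 1.90 CPM of TF and the highest TFRC, 47.9 CPM.

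TFRC, the transferrin receptor (gene 397062, chromosome 13, 133976765 to 133997554), had its lowest median on Day 10. Day 8 embryos had 6.71 to 18.4 CPM with a median of 9.41 CPM. On Day 10 the range was 2.09 to 9.72 CPM and the median 3.69 CPM. On Day 12 the range widened to 1.74 to 47.9 CPM with a median of 30.7 CPM. The 9 Day 12 embryos other than female d12_f_271 all exceeded every Day 10 embryo, and female d12_f_271 lay below every embryo of Days 8 and 10.

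The TFRC level on Day 10 was 2.42-fold lower than on Day 8 with an FDR above the limit for a DEG (log2 fold change -1.28, SE 0.35, edgeR FDR = 0.00242). It passed the limit in 2 of 30 fits that left out 1 embryo, those without Day 10 male d10_m_453 (FDR = 0.000689) and without Day 12 female d12_f_271 (FDR = 0.000165). From Day 10 to Day 12 TFRC rose 6.10-fold (log2 fold change 2.61, SE 0.36, edgeR FDR = 2.09e-07), and this call was made in all 30 such fits. Day 12 against Day 8 gave a rise of 2.52-fold (log2 fold change 1.33, SE 0.34, edgeR FDR = 0.000833), a call that was lost in 17 of the 30 fits, with FDR of up to 0.00231. These were the fits without any 1 of the 5 Day 8 females, d08_m_111, d08_m_121, d08_m_133, d10_f_433, d10_m_318, d10_m_321, d12_f_297, d12_f_299, d12_m_275, d12_m_276, d12_m_286 or d12_m_307.

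STEAP3, the endosomal ferrireductase (gene 100620912, chromosome 15, 24736556 to 24785376), had its lowest median on Day 10 as well. Its range was 3.89 to 8.56 CPM on Day 8 with a median of 5.63 CPM, 1.35 to 4.12 CPM on Day 10 with a median of 2.55 CPM, and 3.12 to 16.9 CPM on Day 12 with a median of 8.74 CPM. The level of 9 Day 10 embryos was below all of Day 8, and that of 9 Day 12 embryos was above all of Day 10. Female d12_f_271 was again the lowest of Day 12.

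STEAP3 fell 2.19-fold from Day 8 to Day 10 (log2 fold change -1.13, SE 0.26, edgeR FDR = 0.000442) and rose 3.58-fold from Day 10 to Day 12 (log2 fold change 1.84, SE 0.26, edgeR FDR = 4.01e-07). The fall was called in 25 of 30 fits without 1 embryo. It was lost, with FDR of 0.00104 to 0.00120, without Day 8 male d08_m_133, Day 10 female d10_f_317, or Day 10 males d10_m_318, d10_m_321 or d10_m_333. Called in both intervals were TF, PICA and STEAP3, 3 of 10, beside 6.2% of all genes.

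SLC11A2, which moves ferrous iron across endosomal and cell membranes (gene 733595, with no chromosome in the gene table), was not called between any 2 days in the fit of all embryos. Its medians were 97.1 CPM on Day 8, 89.2 CPM on Day 10 and 70.7 CPM on Day 12, and its range on Day 12, 32.4 to 104 CPM, took in the whole range of Day 10 apart from the highest embryos. The log2 fold change was -0.11 (SE 0.16, edgeR FDR = 0.597) in the first interval and -0.44 (SE 0.16, edgeR FDR = 0.0210) in the second, and -0.55 (SE 0.16, edgeR FDR = 0.00363) from Day 8 to Day 12. In female embryos only the last of these was -1.19 and called (edgeR FDR = 8.51e-05).

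SLC40A1, ferroportin, the iron exporter of the cell membrane (gene 100737517, chromosome 15, 94140635 to 94161793), peaked on Day 10. Levels were 29.7 to 52.1 CPM on Day 8 with a median of 35.8 CPM, 43.2 to 84.5 CPM on Day 10 with a median of 52.8 CPM, and 14.2 to 37.4 CPM on Day 12 with a median of 24.3 CPM. No Day 12 embryo reached the lowest of Day 10. It was 1.52-fold higher on Day 10 than on Day 8, short of the fold limit (log2 fold change 0.60, SE 0.14, edgeR FDR = 0.000382), and then fell 2.28-fold (log2 fold change -1.19, SE 0.14, edgeR FDR = 7.78e-09). With library size alone in place of TMM factors the fall was -0.99 on the log2 scale and just under the fold limit. That scaling moved the median of all genes to -0.15 in the first interval and 0.24 in the second, from 0.03 and 0.04.

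**Figure D3:**
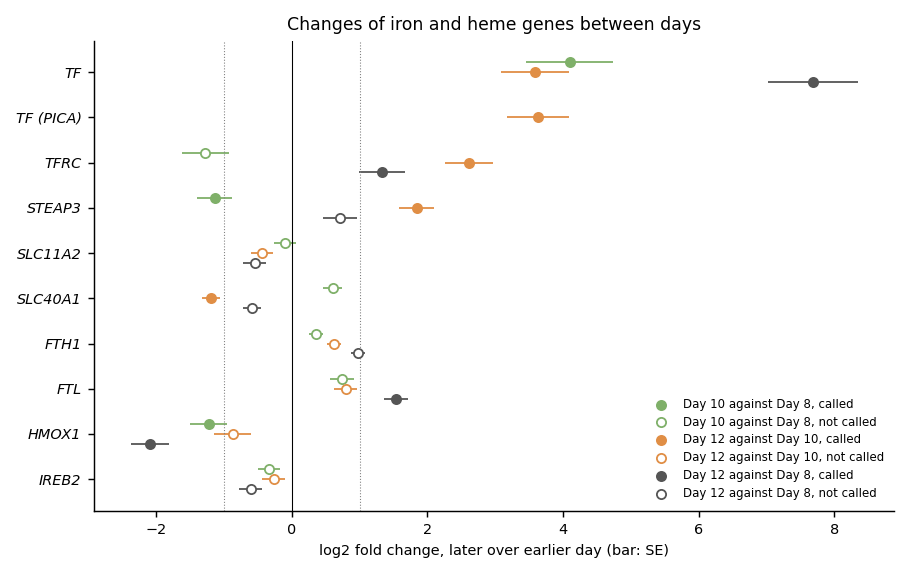
Log2 fold changes of the 10 genes between days, later over earlier, with SE as bars. Filled points were called and open points were not, dotted lines mark log2 fold changes of -1 and 1, and PICA against Day 8 is not drawn because all Day 8 embryos were at or under the floor.

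Both ferritin chains had higher medians on each later day, in smaller steps than those of TF. FTH1, the heavy chain with ferroxidase activity (gene 397030, chromosome 2, 9535051 to 9537979), had 1256 to 1895 CPM on Day 8 with a median of 1621 CPM. The Day 10 range was 1531 to 2344 CPM with a median of 1993 CPM, and the Day 12 range was 2421 to 4309 CPM with a median of 2908 CPM. All Day 12 embryos were above all Day 10 embryos. Ferritin genes can have processed copies elsewhere in a genome, and the reads of such copies may be in these counts.

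The log2 fold change of FTH1 was 0.36 (SE 0.10, edgeR FDR = 0.00370) from Day 8 to Day 10 and 0.62 (SE 0.10, edgeR FDR = 4.85e-06) from Day 10 to Day 12. Over both intervals it was 0.98 (SE 0.10, edgeR FDR = 7.83e-10), a 1.97-fold difference just under the fold limit. It passed that limit in 4 of 30 fits that left out 1 embryo, those without Day 8 male d08_m_111, Day 12 female d12_f_297 or Day 12 males d12_m_275 or d12_m_307.

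FTL, the light chain that aids mineral formation in the shell (gene 397035, chromosome 6, 54231121 to 54232756), had 654 to 1160 CPM on Day 8 with a median of 935 CPM. On Day 10 it had 1117 to 2112 CPM with a median of 1458 CPM, and on Day 12 it had 1668 to 5972 CPM with a median of 2120 CPM. The days overlapped in each interval, and every Day 12 embryo was above every Day 8 embryo. The log2 fold change was 0.74 (SE 0.18, edgeR FDR = 0.000651) and 0.79 (SE 0.18, edgeR FDR = 0.000270) in the 2 intervals, neither past the fold limit. The rise from Day 8 to Day 12 was 2.90-fold (log2 fold change 1.54, SE 0.18, edgeR FDR = 5.93e-09).

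HMOX1, heme oxygenase 1, the inducible enzyme of heme breakdown (gene 445512, with no chromosome in the gene table), had its highest levels on Day 8 and its lowest on Day 12. Day 8 embryos had 82.8 to 328 CPM with a median of 104 CPM, and male d08_m_136 stood highest at 328 CPM with the next embryo at 191 CPM. On Day 10 the range was 24.2 to 85.4 CPM with a median of 60.0 CPM, and on Day 12 it was 13.4 to 63.3 CPM with a median of 26.5 CPM. Days 8 and 12 did not overlap.

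HMOX1 fell 2.34-fold from Day 8 to Day 10 (log2 fold change -1.22, SE 0.27, edgeR FDR = 0.000333) and 4.28-fold from Day 8 to Day 12 (log2 fold change -2.10, SE 0.28, edgeR FDR = 7.96e-08). Without male d08_m_136 the first of these was -0.97 on the log2 scale and no longer called (FDR = 0.00123). The step from Day 10 to Day 12 was -0.87 (SE 0.27, edgeR FDR = 0.00649) and was not called.

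IREB2, the iron regulatory protein (gene 100153993, chromosome 7, 47481539 to 47529199), was not called in any comparison of days in the fit of all embryos. Its range was 116 to 163 CPM on Day 8 with a median of 132.8 CPM, 94.1 to 126 CPM on Day 10 with a median of 110 CPM, and 34.3 to 138 CPM on Day 12 with a median of 97.3 CPM. The CV was 13.1% on Day 8, 9.66% on Day 10 and 38.1% on Day 12. Its log2 fold change was -0.34 (SE 0.17, edgeR FDR = 0.0830) in the first interval, -0.27 (SE 0.17, edgeR FDR = 0.161) in the second, and -0.61 (SE 0.17, edgeR FDR = 0.00164) over both. In female embryos only the change from Day 8 to Day 12 was -1.17 and called (edgeR FDR = 0.00020).

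Counts of genes without any overlap between days add a view that uses no model. On Day 10 against Day 8 only TF did not overlap, 1 of 10 beside 22% of all genes. FTH1 and SLC40A1 did not overlap on Day 12 against Day 10, 2 of 10 beside 16.6%, and 5 of 10 did not on Day 12 against Day 8, beside 31.7%.

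The ratio of 2 genes within 1 embryo does not depend on library size or scaling factors. The log2 ratio of FTH1 to FTL counts was 0.80 ± 0.21 (SD, n = 10) on Day 8, 0.42 ± 0.23 on Day 10 and 0.32 ± 0.40 on Day 12. It fell by 0.38 from Day 8 to Day 10 (two-sided permutation test, adjusted over 6 tests, p = 0.00411) and by 0.48 from Day 8 to Day 12 (permutation p = 0.00592). The difference between Days 10 and 12 was -0.10 (permutation p = 0.639). FTL counts thus took a larger part of the 2 chains' counts on Days 10 and 12 than on Day 8, with overlap between the days. Female d12_f_245 was the 1 embryo of Day 12 with more FTL than FTH1 counts, at -0.56.

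The log2 ratio of TFRC to FTH1 counts, the receptor of uptake over a chain of the store, was -7.28 ± 0.63 on Day 8, -8.97 ± 0.73 on Day 10 and -7.22 ± 1.67 on Day 12 (SD, n = 10). It fell by 1.69 from Day 8 to Day 10 (permutation p = 0.00024) and rose by 1.75 from Day 10 to Day 12 (permutation p = 0.0116). Between Days 8 and 12 the difference was 0.06 (permutation p = 0.931). On Day 12 the ratio was -11.27 in female d12_f_271, -8.38 in female d12_f_289 and -8.12 in female d12_f_245, and -7.02 to -5.78 in the other 7 embryos. Without females d12_f_245 and d12_f_271 the rise from Day 10 to Day 12 was 2.37 (permutation p = 0.000411).

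**Figure D4:**
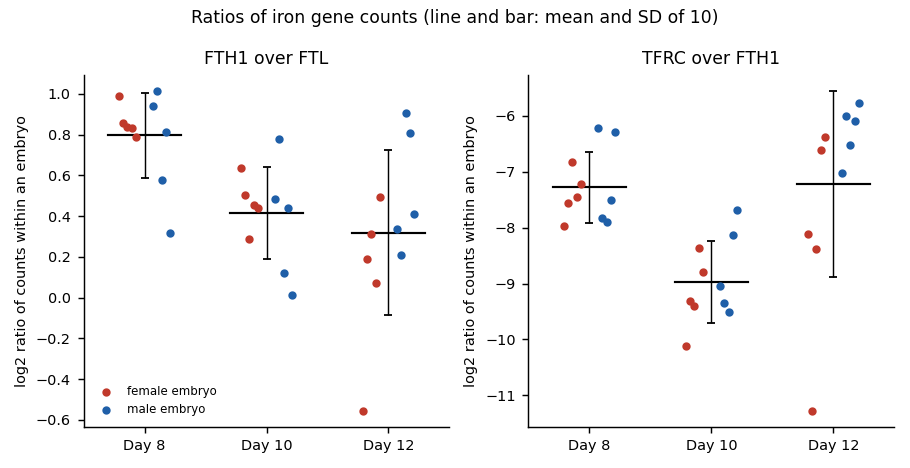
Log2 ratio of counts within an embryo, FTH1 over FTL (left) and TFRC over FTH1 (right), by day, with the mean and SD of 10 embryos as line and bar. FTH1 over FTL has its highest mean on Day 8 (0.80), and TFRC over FTH1 its lowest on Day 10 (-8.97) and its widest spread on Day 12 (SD 1.67).

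Across the 10 embryos of a day, 9 correlations of log2 CPM were computed, 3 pairs of genes on 3 days. TFRC and FTH1 ran opposite to each other on Day 8 (r = -0.76, adjusted permutation p = 0.0364, rho = -0.67, adjusted permutation p = 0.247) and on Day 12 (r = -0.78, adjusted permutation p = 0.0266, rho = -0.64, adjusted permutation p = 0.247). Without the 2 embryos farthest from the TFRC median r was -0.44 on Day 8 and -0.60 on Day 12. Each of these relations thus leans in part on few embryos. Left out on Day 8 were males d08_m_103 and d08_m_136. On Day 12 females d12_f_245, d12_f_271 and d12_f_289 had the lowest TFRC levels, 14.6, 1.74 and 11.5 CPM. They also had the highest FTH1 levels, 4064, 4309 and 3819 CPM. Relations within a sex were not tested. FTH1 and FTL ran together on Day 12 (r = 0.74, adjusted permutation p = 0.0364, rho = 0.41, adjusted permutation p = 0.473), and r was 0.35 without females d12_f_245 and d12_f_271, so the relation rests on those embryos. In the other 6 cases r did not pass 0.05 after adjustment, and no rho did. For TF and TFRC, r was 0.16, -0.05 and 0.54 on the 3 days, with adjusted permutation p = 0.750, 0.887 and 0.195.

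Female and male embryos were compared within each day, in the count table of that day. The paper states that embryos of both sexes were chosen from the same sow at each stage. Without gilt labels the tests could not pair them. None of the 8, 9 and 10 listed genes in the tables of Days 8, 10 and 12 was called between sexes by edgeR's quasi-likelihood test at an FDR under 0.05, where 0.658%, 0.223% and 0.123% of all genes were called. At an unadjusted p under 0.05 the counts were 1, 0 and 3 of the listed genes, beside 4.59%, 2.36% and 22.7% of all genes. No listed gene was without overlap of the sexes on any day, beside 1.55%, 0.823% and 4.68% of all genes. As HEPH was not in the tables, none of the genes compared was known to be X-linked.

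The 3 genes on Day 12 were FTL, IREB2 and SLC11A2. FTL levels were 5972, 3775, 3074, 2474 and 2061 CPM in female embryos d12_f_245, d12_f_271, d12_f_289, d12_f_297 and d12_f_299, and 2145, 2095, 1743, 1668 and 1988 CPM in male embryos d12_m_249, d12_m_275, d12_m_276, d12_m_286 and d12_m_307. The female values were spread widely and the male values lay within the lower part of the range, with female d12_f_299 among them. The log2 difference, female over male, was 0.89 (SE 0.28, edgeR FDR = 0.198).

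IREB2 levels in the same order were 34.3, 42.1, 59.3, 90.3 and 97.3 CPM in female embryos and 110.1, 112, 120.97, 138 and 97.3 CPM in male embryos. Females d12_f_245, d12_f_271 and d12_f_289 were low, and females d12_f_297 and d12_f_299 came close to the lowest male. Its log2 difference was -0.81 (SE 0.26, edgeR FDR = 0.198). SLC11A2 had 32.6, 32.4, 42.4, 58.7 and 75.7 CPM in female embryos and 75.2, 66.2, 104, 85.6 and 80.9 CPM in male embryos, a log2 difference of -0.74 (SE 0.23, edgeR FDR = 0.198). The same 3 female embryos were the lowest.

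A fit of all 30 embryos in 6 groups of day and sex gave an FDR under 0.05 for these 3 genes on Day 12, 3 of 10 beside 20.3% of all genes. The robust GLM of edgeR gave it for SLC11A2 alone, beside 0.827% of all genes, and DESeq2 for none, beside 1.63%. On Days 8 and 10 neither tool called a listed gene. Whether a sex difference itself changed between days was tested as an interaction. By edgeR's quasi-likelihood test 0 of the 10 genes were called in any of the 3 pairs of days, beside 0% of all genes, and 0, 4 and 3 had an unadjusted p under 0.05 for Days 8 and 10, Days 10 and 12, and Days 8 and 12, beside 0.763%, 18.9% and 21.8% of all genes. The robust GLM called FTL, IREB2 and SLC11A2 for both pairs with Day 12, beside 1.91% of all genes for Days 10 and 12 and 4.21% for Days 8 and 12. DESeq2 called FTL and SLC11A2 for Days 8 and 12, beside 2.64%, and none for Days 10 and 12.

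For the 3 genes called in both intervals, those with the most alike levels over all 30 embryos were found by Pearson's r of log2 CPM, given as a description. TF was most like SULF1 (r = 0.957), EMILIN2 (0.956) and PDZK1 (0.953). PICA was most like MEX3B (0.964), ERBB3 (0.963) and SUCLG2 (0.962). STEAP3 was most like EXT2 (0.890), SLC29A1 (0.858) and GRAMD1B (0.857), each with its lowest daily mean on Day 10. The 30 embryos share the difference between days, and r over them reflects it.

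Other genes of iron and heme handling were taken from 7 lists, of which 95 genes were in the table. On Day 10 against Day 8, 16 of the 95 were called, 10 higher and 6 lower. On Day 12 against Day 10, 32 were called, 15 higher and 17 lower. All genes tested split into 9.88% higher and 4.2% lower in the first interval, and into 14.9% higher and 8.39% lower in the second. With library size alone, 1027 genes were called higher and 811 lower in the first interval, in place of 1295 and 550.

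**Figure D5:**
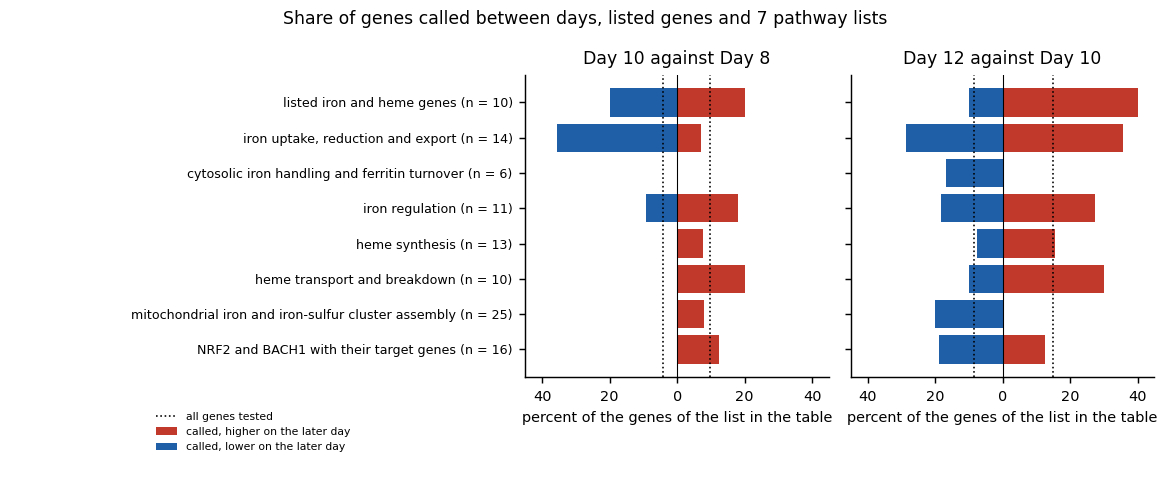
Percent of the genes of each list called higher (red, to the right) and lower (blue, to the left) on the later day, in the 2 intervals, with dotted lines for all genes tested. In iron uptake, reduction and export 5 of 14 genes are called lower on Day 10 and 5 are called higher on Day 12, and in mitochondrial iron and iron-sulfur cluster assembly 5 of 25 are called lower on Day 12 and none higher.

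Among 14 genes of iron uptake, reduction and export, 5 fell and 1 rose from Day 8 to Day 10, beside 4.2% and 9.88% of all genes. SLC39A14, a zinc and iron importer, fell from 50.2 ± 10.2 to 14.2 ± 3.36 CPM (SD, n = 10, log2 fold change -1.82, edgeR FDR = 4.00e-08). MELTF, melanotransferrin, fell from 7.12 ± 2.93 to 2.05 ± 0.85 CPM (log2 fold change -1.79), and STEAP1, a relative of STEAP3, fell by 1.71 on the log2 scale to 0.289 ± 0.140 CPM. This STEAP1 level was near the floor. The ferritin receptor SCARA5 rose from 3.04 ± 1.41 to 12.9 ± 3.29 CPM (log2 fold change 2.08, edgeR FDR = 2.10e-09). The median log2 fold change of the list was -0.61.

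In the next interval 5 of these 14 genes rose and 4 fell, beside 14.9% and 8.39% of all genes. The median log2 fold change of the list was then 0.48. SLC39A8, a relative of SLC39A14, rose from 25.7 ± 5.87 to 169 ± 92.4 CPM (log2 fold change 2.72, edgeR FDR = 2.25e-10). STEAP2 rose by a log2 fold change of 2.24 and STEAP1 by 2.03, while the metalloreductase STEAP4 fell from 9.44 ± 5.86 to 0.285 ± 0.251 CPM (log2 fold change -5.11, edgeR FDR = 1.29e-10). The STEAP4 level on Day 12 was near the floor, so the size of its fall is uncertain. SCARA5 returned to 2.59 ± 0.815 CPM (log2 fold change -2.33), and the endolysosomal channel MCOLN1 fell by 1.59 on the log2 scale.

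Of 11 genes of iron regulation, 2 rose and 1 fell in the first interval, beside 9.88% and 4.2% of all genes. In the second 3 rose and 2 fell, beside 14.9% and 8.39%. EPAS1, a hypoxia-inducible factor whose mRNA carries an iron-responsive element, rose from 7.99 ± 5.07 CPM on Day 8 to 37.1 ± 18.6 CPM on Day 10 and 339 ± 122 CPM on Day 12 (log2 fold changes 2.20 and 3.19, edgeR FDR = 7.04e-07 and 4.39e-10). ACO1, the other iron regulatory protein and cytosolic aconitase, rose by a log2 fold change of 1.40 to 363 ± 87.8 CPM on Day 10 and then fell by 1.09 on the log2 scale. FBXL5, the ubiquitin ligase subunit that targets IREB2 when iron is plentiful, fell from 89.9 ± 7.44 to 33.8 ± 6.40 CPM from Day 10 to Day 12 (log2 fold change -1.41, edgeR FDR = 2.00e-14), with no overlap.

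HAMP, which encodes the ferroportin-binding hormone hepcidin, was at 0.0629 ± 0.0550 CPM on Day 8, 0.0428 ± 0.0371 CPM on Day 10 and 1.59 ± 0.875 CPM on Day 12, and was called in the second interval (edgeR FDR = 3.15e-10). NEO1, a co-receptor in the control of hepcidin, rose by a log2 fold change of 1.91 there. HFE, which binds the transferrin receptor, fell by 2.32 on the log2 scale from Day 8 to Day 10, to 0.183 ± 0.128 CPM. The levels of HFE on Day 10 and of HAMP on Days 8 and 10 were near the floor, which limits their fold changes. In cytosolic iron handling 0 and 1 of 6 genes were called in the 2 intervals, beside 14.1% and 23.3% of all genes. The gene called was PCBP3, a relative of the iron chaperone PCBP1, which fell by 1.99 on the log2 scale from Day 10 to Day 12.

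Heme synthesis had 1 of 13 genes called in the first interval and 3 in the second, beside 14.1% and 23.3% of all genes. ALAS2, the erythroid form of the first enzyme, rose from 0.658 ± 0.362 to 2.51 ± 1.28 CPM from Day 8 to Day 10 (log2 fold change 1.91, edgeR FDR = 4.95e-05). From Day 10 to Day 12 the pathway enzymes ALAD and UROD rose by log2 fold changes of 1.19 and 1.13, and the mitochondrial transporter ABCB10 fell from 182 ± 26.3 to 65.1 ± 19.3 CPM (log2 fold change -1.48). All 3 were without overlap of the days.

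Of 10 genes of heme transport and breakdown, 2 rose from Day 8 to Day 10, beside 9.88% of all genes. They were the transporter FLVCR2 (log2 fold change 1.80) and the heme-binding protein PGRMC1 (1.78, to 677 ± 192 CPM). From Day 10 to Day 12, 3 rose and 1 fell, beside 14.9% and 8.39% of all genes. LRP1, a receptor for heme-hemopexin complexes, rose from 16.4 ± 4.62 to 104 ± 59.5 CPM (log2 fold change 2.67), the endosomal heme transporter SLC48A1 by a log2 fold change of 1.85, and biliverdin reductase BLVRA by 1.60. ABCG2, an exporter of porphyrins among other substrates, fell from 513 ± 91.4 to 50.1 ± 27.0 CPM (log2 fold change -3.35, edgeR FDR = 1.43e-12).

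In mitochondrial iron and iron-sulfur cluster assembly, 2 of 25 genes rose in the first interval, beside 9.88% of all genes. In the second 5 fell, beside 8.39%. SLC25A37, mitoferrin 1, rose from 21.1 ± 3.25 to 51.5 ± 13.3 CPM and then fell to 20.6 ± 8.00 CPM (log2 fold changes 1.29 and -1.34). GLRX5, a carrier of iron-sulfur clusters, rose by a log2 fold change of 1.08 to 223 ± 84.3 CPM and then fell by 1.41 on the log2 scale. FDXR, a ferredoxin reductase, and FDX1, a mitochondrial ferredoxin, fell by 1.57 and 1.51 on the log2 scale from Day 10 to Day 12, both without overlap. The ferredoxin FDX2 was listed as well but matched no gene identifier, so it was not measured.

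HMOX1 is also a target of the factors NRF2 and BACH1, and 16 genes of that group were in the table. The quinone reductase NQO1 rose in both intervals (log2 fold changes 3.05 and 2.25), from 1.03 ± 0.506 CPM on Day 8 to 40.4 ± 22.9 CPM on Day 12, and GCLC, of glutathione synthesis, rose in the first (1.80). From Day 10 to Day 12 the cystine transporter SLC7A11 rose (3.08), and OSGIN1, PRDX1 and TXNRD1 fell by 1.35, 1.10 and 1.06 on the log2 scale. In this list of 16, 2 genes rose and none fell in the first interval, beside 9.88% and 4.2% of all genes. In the second, 2 rose and 3 fell, beside 14.9% and 8.39%. Any link of these genes to the fall of HMOX1 was not tested.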

How the data were processed

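The deposited tables hold raw read counts per NCBI gene identifier without normalization, 13103 genes for all 30 embryos and 11405, 11675 and 12220 genes for Days 8, 10 and 12. To make these counts, the authors built TruSeq stranded mRNA libraries, sequenced single-end reads, used Trim Galore for trimming and Sscrofa11.1 with its NCBI annotation for mapping, and applied a CPM cutoff to the genes. The submitters' processing notes name edgeR, and the aligner and counting tool are not given in the sources used here. Gene positions are from the RefSeq gene table of Sscrofa11.1, and no sequence is printed.

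Counts of genes shared between tables were identical, and all 60 pairs of replicates within a group differed beyond sampling noise. Total counts of 6068212 to 34002508 per embryo set a floor of 3 counts at up to 0.434 CPM, and floors cover counting error only. Days were compared in the table of all embryos with edgeR's quasi-likelihood F test (robust, TMM factors, Benjamini-Hochberg adjustment, R 4.3.3, edgeR 4.0.16, limma 3.58.1) in 1 fit of 3 groups. Sexes were compared in the table of their day, and interactions in a fit of 6 groups. The SE is the log2 fold change over the square root of F. Ratios and correlations used two-sided permutation tests of 100000 draws (Python 3.11.15, numpy 2.4.6, pandas 2.3.3, scipy 1.17.1), or all splits where fewer exist, adjusted over 6 and 9 tests. The quasi-likelihood test was tried on simulated data for Day 10 against Day 8 and for the sexes within each day. The interaction was not tried in this way.

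All listed genes were described. Of each pathway list, up to 3 called genes with the largest rise and 3 with the largest fall in an interval were named, with the 3 genes most alike in level to each listed gene called in both intervals. The genes and lists were chosen with earlier results of these data known. Alternatives were the robust GLM, DESeq2 1.42.0, RLE factors, library size alone, other filters, sex as a term, 2 days or 1 sex in the fit, another prior count, no fold limit and each embryo left out. Leaving out Day 12 females d12_f_245 and d12_f_271 together was chosen after seeing the data.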

Additional observations from a re-analysis of the deposited data

Results flagged for a closer look

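In 36 groups of 10 embryos of a day, 4 had a highest or lowest embryo far from the others by Dixon's criterion. Chance flags about 1 in 20 groups of normally distributed values. Gene levels were read in CPM, where a high value stands out more than on the log2 scale, so that rate may not hold for them. TF on Day 10 was 5.70 CPM in male d10_m_333, with the next embryo at 3.44 CPM. HMOX1 on Day 8 was 328 CPM in male d08_m_136, with the next at 191 CPM, and without this embryo the fall of HMOX1 to Day 10 was -0.97 on the log2 scale and no longer called. FTL on Day 12 was 5972 CPM in female d12_f_245, the library with the lowest total, with the next at 3775 CPM. The log2 ratio of TFRC to FTH1 on Day 12 was -11.27 in female d12_f_271, with the next at -8.38.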

How the results depend on the processing

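No analysis paired by litter was possible because the gilt of an embryo is not in the labels. No X-linked gene of the list could be compared between sexes because HEPH was not in the tables. With an FDR under 0.05 and no fold limit, 8, 9 and 10 of the 10 genes were called on Day 10 against Day 8, Day 12 against Day 10 and Day 12 against Day 8. On Day 10 against Day 8, 0 were called in female embryos only and 1, TF, in male embryos only, beside 7.46% and 8.14% of all genes, and in female embryos the 4 genes called in all embryos had an edgeR FDR of 0.00755 to 0.0483. Between sexes on Day 12 a fit of 6 groups called 3 and the robust GLM 1, beside 20.3% and 0.827% of all genes, and for the interaction of sex and day the robust GLM called 3 and 3 in the pairs with Day 12 (1.91% and 4.21%) and DESeq2 2 for Days 8 and 12 (2.64%).

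In fits without 1 embryo, 3 to 5 genes were called in the first interval, 5 in the second and 4 or 5 over both. TFRC on Day 10 against Day 8 was called by the robust GLM, DESeq2, library size alone, sex as a term and 2 days in the fit, and HMOX1 was not called there by the robust GLM (-0.97). In the second interval the robust GLM called HMOX1 (-1.08), and library size alone called FTL (1.01). With male embryos only, SLC11A2 changed sign on Day 10 against Day 8 (0.00284), as did IREB2 on Day 12 against Day 10 (0.086), neither called, TF was no longer called from Day 10 to Day 12 (2.76) and FTL no longer from Day 8 to Day 12 (0.99). With female embryos only, TFRC was not called from Day 10 to Day 12 (2.23) or from Day 8 to Day 12 (0.78), FTL was called from Day 10 to Day 12 (1.19), and IREB2 (-1.17), SLC11A2 (-1.19) and FTH1 (1.06) were called from Day 8 to Day 12.

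For log2 TFRC over FTH1, female embryos only gave 1.05 on Day 12 against Day 10 (exact permutation p = 0.324) and -0.74 on Day 12 against Day 8 in place of 0.06, which ran from -0.10 to 0.51 without 1 embryo and was negative in 8 of those 30 cases. Male embryos only gave -1.59 on Day 10 against Day 8, and for FTH1 over FTL -0.37, 0.17 and -0.20 in the 3 comparisons, none past 0.05. Without Day 12 females d12_f_245 and d12_f_271, chosen after seeing the data, FTH1 over FTL on Day 12 against Day 10 was 0.027, and r on Day 12 was -0.19 for TF and TFRC, 0.35 for FTH1 and FTL and -0.62 for TFRC and FTH1. The Day 8 r of TFRC and FTH1, -0.76, then had an adjusted permutation p of 0.0823 through the adjustment alone. A prior count of 0.5 gave r = -0.034 for TF and TFRC on Day 8. At this depth TF on Day 8 and PICA on Days 8 and 10 lie near the floor, which limits their fold changes. The same holds for HFE and STEAP1 on Day 10, HAMP on Days 8 and 10 and STEAP4 on Day 12. The causes of these changes were not tested.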
